A study of Mus musculus with 6 samples.

Results

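The let-7 and miR-98 guide arms, the 5p strands of the mouse let-7 family, were followed in brown and subcutaneous fat. All 9 arms fixed by name (let-7a, b, c, d, e, f, g and i, and miR-98) were found among the 1251 miRNA arms of the deposited table, and all 9 passed the filter on low values that left 269 arms for testing. The series holds small RNA sequencing of fat depots from C57BL/6J mice, an inbred strain, that were 5 to 6 weeks old when feeding began. For 11 weeks they ate a high fat diet in which fat gave 45%, carbohydrate 35% and protein 20% of the energy. The libraries analysed here all come from the arm whose diet was supplemented with 6.75% eicosapentaenoic acid (EPA), an omega-3 fatty acid. Mice were fasted for 4 hours before the tissues were taken. The group BF-EPA is interscapular brown fat, with libraries numbered 3, 4 and 5, and the group SUB-EPA is inguinal subcutaneous fat, with libraries numbered 1, 3 and 8. Since both groups received EPA, the comparison is between depots and shows nothing of what EPA does. The labels do not say whether the libraries come from separate mice or whether a number marks the same mouse in both depots, so p-values measure only the spread between these libraries.

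A miRNA guide arm is the strand that is loaded into an Argonaute protein and pairs with messenger RNAs, mainly through its seed, bases 2 to 8 from the 5′ end. The let-7 family is known for rising as cells differentiate, for repressing growth genes such as Lin28, Hmga2, Igf2bp and Ras family members, and for being held back by LIN28 proteins at the precursor stage. In mice, let-7 has been linked to insulin and glucose metabolism, and in cultured fat cell precursors to restraint of their growth.

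The mature sequences, taken from RefSeq (GRCm38.p6), are shown because all 9 arms carry the same seed and differ at only a few bases outside it. All are 22 bases long, the capitals mark the seed, and positions are counted from 1 at the 5′ end.
let-7a-5p: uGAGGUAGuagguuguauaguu
let-7b-5p: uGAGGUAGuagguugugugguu
let-7c-5p: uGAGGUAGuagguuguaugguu
let-7d-5p: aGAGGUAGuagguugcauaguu
let-7e-5p: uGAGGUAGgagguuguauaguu
let-7f-5p: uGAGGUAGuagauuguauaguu
let-7g-5p: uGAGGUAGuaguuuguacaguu
let-7i-5p: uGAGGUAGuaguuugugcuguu
miR-98-5p: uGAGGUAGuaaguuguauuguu

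Relative to let-7a-5p, let-7c-5p differs by A19G alone, let-7e-5p by U9G alone and let-7f-5p by G12A alone. Let-7b-5p carries A17G and A19G, so it stands 1 base from let-7c-5p. Let-7d-5p is the only member without U at its 5′ end (U1A and U16C). Let-7g-5p (G12U and U18C) and miR-98-5p (G11A and A19U) also differ at 2 bases, and let-7i-5p (G12U, A17G, U18C and A19U) is furthest away. How reads that match several members were assigned is not given in the sources used here, so the split between members that differ by 1 base is less certain than their sum. No member had the same values as another row of the table. Of the 1679 mature arms in the reference table, 11 have this seed. The remaining ones, let-7k and miR-1961, were listed at the floor of the table in all 6 libraries, as was let-7j, whose seed differs.

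The 9 arms come from 12 hairpins, given here in GRCm38.p6 coordinates with GENCODE M21 gene models. On chromosome 13, minus strand, let-7d (48536012 to 48536114), let-7f-1 (48537829 to 48537917) and let-7a-1 (48538179 to 48538272) overlap exons of the long noncoding RNA 6720427I07Rik. On chromosome 15, plus strand, let-7c-2 (85706603 to 85706697) and let-7b (85707319 to 85707403) lie 621 bases apart and overlap exons of the noncoding transcript Lncppara. Let-7c-1 (chromosome 16, 77599657 to 77599750, plus strand) lies in an intron of Mir99ahg, 656 bases downstream of miR-99a. Let-7a-2 (chromosome 9, 41536716 to 41536811, plus strand) follows miR-100 in introns of 3110039I08Rik, and let-7e (chromosome 17, 17830352 to 17830444, plus strand) lies in an intron of Spaca6, 367 bases upstream of miR-125a. Let-7f-2 (chromosome X, 151912346 to 151912428, plus strand) and miR-98 (151913214 to 151913321) lie 785 bases apart in intronic sequence of the ubiquitin ligase gene Huwe1. Let-7g lies in an intron of Wdr82 (chromosome 9, 106178840 to 106178927, plus strand), and let-7i overlaps an exon of the pseudogene transcript D630033A02Rik (chromosome 10, 122985640 to 122985724, minus strand). Let-7a-5p, let-7c-5p and let-7f-5p each come from 2 hairpins with the same mature sequence, so their values cannot be divided between loci.

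Values are normalized log2 abundances with a floor at 3.32. The series' design text states an average of about 13800000 mapped reads per sample, but the values carry no depth for single libraries. Libraries share almost the same distribution of values, so a member's value is in effect fixed by its rank in its library, differences are relative to the other arms, and replicates often tie exactly. In bulk tissue, fewer cells of a type and less of a miRNA per cell cannot be told apart.

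Most let-7 guide arms were lower in brown than in subcutaneous fat. Of the 9 members, 8 were lower and 0 higher in BF-EPA (limma, adjusted p under 0.05), whereas of all 269 tested arms 35.7% were lower, 33.5% were higher and 69.1% passed in either direction. The libraries of the depots did not overlap for 8 of 9 members, all lower in BF-EPA, against 40.1% of tested arms that were lower and 33.8% that were higher without overlap. The median difference of the members was -1.32 on the log2 scale (brown minus subcutaneous), against -0.45 over all tested arms. The exception was let-7b-5p. These directions depended on the processing. When the trend of each library with GC content was removed, only 3 members were lower and 5 were higher, as described below.

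Let-7c-5p, the most abundant member, stood at 16.02, 15.87 and 15.87 in BF-EPA libraries 3, 4 and 5, and at 18.67 in all 3 subcutaneous libraries. It ranked 10 or 11 among all arms in brown fat and 1 in subcutaneous fat. The depots did not overlap, and the difference was -2.75 ± 0.09 (SE, n = 3 per depot, limma adjusted p = 4.98e-06), or 6.75-fold.

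Let-7a-5p, whose sequence is that of the let-7 first found in worms, stood at 15.16, 15.16 and 14.88 in brown fat and at 17.77 in each subcutaneous library. It ranked 16 to 18 in brown and 2 in subcutaneous fat. The difference was -2.70 ± 0.12 (SE, n = 3 per depot, limma adjusted p = 1.27e-05), or 6.51-fold. Since the subcutaneous libraries tie at a single value for let-7a-5p, let-7c-5p and let-7d-5p, that depot adds no spread there and these SEs may be too small.

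Let-7e-5p showed a separation of similar size at a much lower level. It stood at 10.99, 10.99 and 10.70 in brown fat and at 13.32, 13.69 and 13.56 in SUB-EPA libraries 1, 3 and 8, a 6.19-fold difference (-2.63 ± 0.17 SE, n = 3 per depot, limma adjusted p = 4.6e-05). Its rank moved from 72 to 78 in brown fat to 31 to 36 in subcutaneous fat.

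Let-7i-5p, the member with the most differences from let-7a-5p, was next in size. It stood at 11.38, 12.07 and 10.82 in brown fat, the widest spread of any member in that depot, and at 13.69, 13.40 and 13.51 in subcutaneous fat. The difference of -2.11 ± 0.32 (SE, n = 3 per depot, limma adjusted p = 0.00149) was larger than this spread.

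Let-7f-5p and let-7g-5p, which come from separate loci, showed about 2-fold differences. Let-7f-5p stood at 13.40, 13.32 and 12.59 in brown fat and at 14.52, 14.18 and 14.18 in subcutaneous fat (-1.19 ± 0.25 SE, n = 3 per depot, limma adjusted p = 0.00536). Let-7g-5p stood at 12.74, 12.65 and 12.12 in brown fat and at 13.84, 13.32 and 13.63 in subcutaneous fat (-1.09 ± 0.22 SE, n = 3 per depot, limma adjusted p = 0.0051). The depots did not overlap for either member.

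Let-7d-5p was held almost level within each depot, at 13.74, 13.69 and 13.69 in brown fat and at 14.31 in each subcutaneous library. It was 1.52-fold lower in brown fat (-0.60 ± 0.10 SE, n = 3 per depot, limma adjusted p = 0.00266), the smallest difference among the 8 lower members. MiR-98-5p was the least abundant member, at ranks 102 to 178, with 8.21, 7.86 and 7.11 in brown fat and 9.49, 8.39 and 9.27 in subcutaneous fat. Its highest brown and lowest subcutaneous values lay close together, and the call (-1.32 ± 0.42 SE, n = 3 per depot, limma adjusted p = 0.0284) was the weakest. It was lost without BF-EPA 4 (adjusted p = 0.0700), BF-EPA 5 (0.0891), SUB-EPA 1 (0.0930) or SUB-EPA 8 (0.0939), and with median-of-ratios scaling (0.0622).

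Let-7b-5p stood at 15.47, 15.47 and 15.16 in brown fat and at 15.47, 15.30 and 15.47 in subcutaneous fat. The depots overlapped, and its rank was 14 to 16 in every library. The difference was -0.05 ± 0.13 (SE, n = 3 per depot, limma adjusted p = 0.768), with a 95% interval of -0.37 to 0.28. That interval does not reach the difference of any of let-7a-5p, let-7c-5p, let-7d-5p, let-7e-5p, let-7f-5p, let-7g-5p, let-7i-5p or miR-98-5p. When libraries were scaled to the total outside the family, let-7b-5p was lower in brown fat (-0.49, limma adjusted p = 0.0182). That scaling shifts the difference of every arm by the same amount, and the median of all tested arms went from -0.45 to -0.90. Other settings gave let-7b-5p the opposite sign: 0.22 with median-of-ratios scaling (limma adjusted p = 0.189) and 0.76 with the GC trend removed (0.00447).

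**Figure D1:**
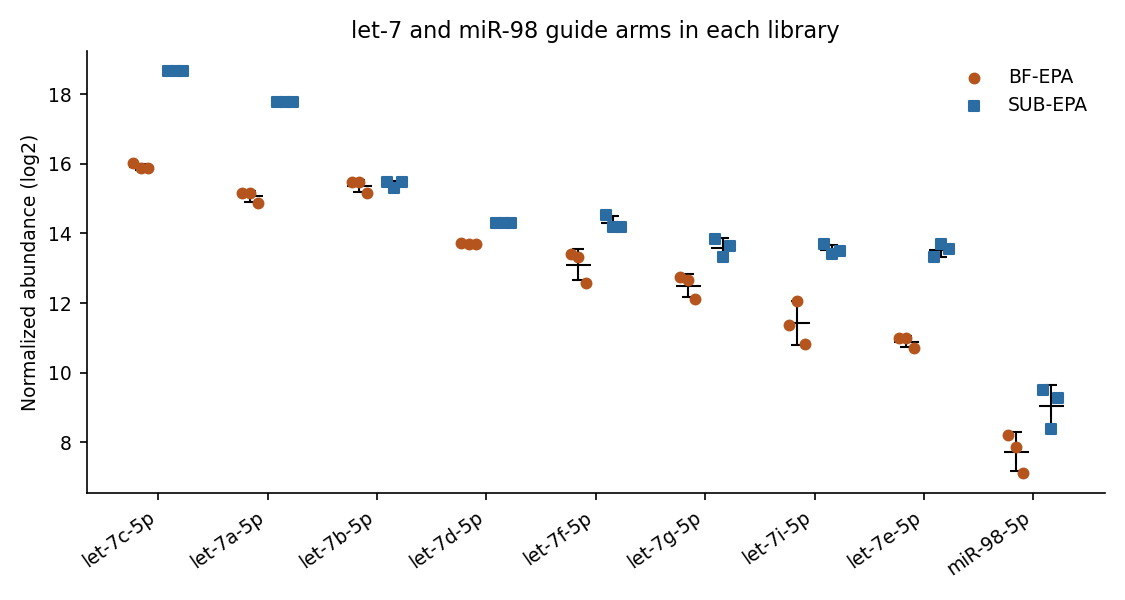
Normalized log2 abundance (y axis) of the 9 guide arms (x axis, ordered by subcutaneous mean) in each of the 3 BF-EPA libraries (circles) and 3 SUB-EPA libraries (squares), with depot mean and SD as black bars. The depots are apart for 8 arms and overlap for let-7b-5p, which lies between 15.16 and 15.47 in all 6 libraries.

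The order of the members differed between depots. In every brown library the order from the top was let-7c-5p, let-7b-5p and let-7a-5p, followed by let-7d-5p, let-7f-5p and let-7g-5p. In every subcutaneous library let-7c-5p led let-7a-5p, and let-7b-5p ranked 3 within the family. Let-7d-5p and let-7f-5p had means of 14.31 and 14.29 in subcutaneous fat and did not differ beyond the spread of let-7f-5p (SD 0.20). Likewise let-7e-5p, let-7i-5p and let-7g-5p overlapped there, with means of 13.52, 13.53 and 13.60, whereas in brown fat let-7g-5p (12.50 ± 0.33 SD, n = 3) lay above let-7i-5p (11.42 ± 0.62) and let-7e-5p (10.89 ± 0.16).

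Within brown fat, 1 library was low for the family. All 9 members were below their brown mean in BF-EPA 5, against 38.3% of all tested arms. Deviations of single libraries from the depot mean were at most 0.66 on the log2 scale in either depot. Without BF-EPA 5, 7 members were lower in brown fat, as miR-98-5p lost its call. Of all 269 tested arms, 90 were lower and 75 higher in that fit.

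GC content moved with these results. The members hold 31.8% to 45.5% G and C, below the median of 50.0% over the 229 tested arms with a reference sequence. In the brown libraries abundance rose with GC content by 0.17 to 0.26 log2 units per 10 percentage points, and in the subcutaneous libraries it fell by 0.91, 1.13 and 1.22. The slopes of the depots did not overlap, so depot and GC trend cannot be told apart here. With each library's linear trend removed, let-7c-5p (-1.36, limma adjusted p = 0.00045), let-7e-5p (-1.24, 0.00294) and let-7a-5p (-0.72, 0.0152) were still lower in brown fat, and let-7i-5p (-0.71, 0.0919) was no longer called. The direction turned for miR-98-5p (1.25, adjusted p = 0.0277), let-7f-5p (1.39, 0.00504), let-7g-5p (0.89, 0.00967) and let-7d-5p (0.79, 0.00284). Let-7b-5p became higher in brown fat (0.76, 0.00447). Over the 229 arms of that fit, 36.2% passed as lower in BF-EPA and 28.4% as higher.

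**Figure D2:**
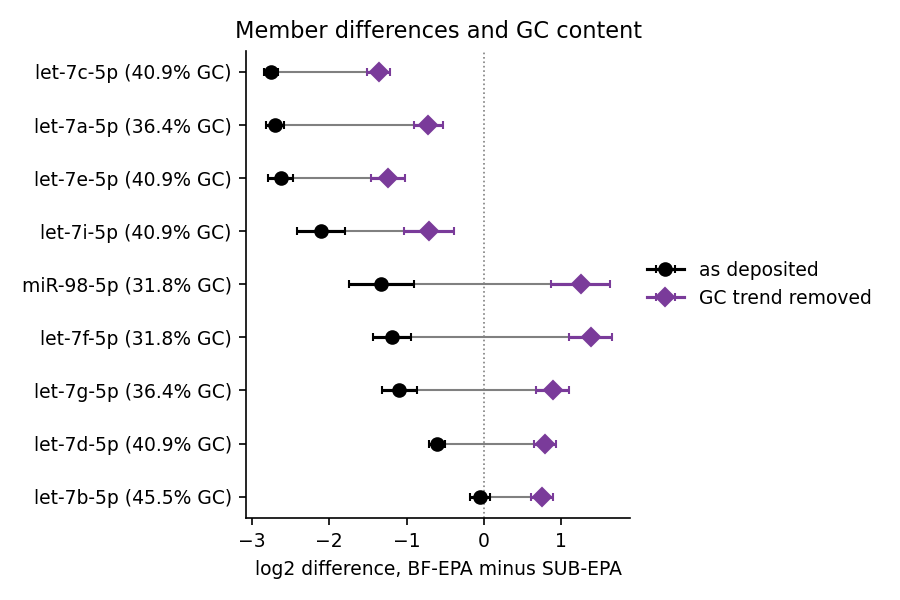
Difference between depots (x axis, log2, BF-EPA minus SUB-EPA, bars are SE) for each guide arm (y axis, with its GC content), from the values as deposited (circles) and after removing each library's linear trend with GC content (diamonds). Let-7c-5p, let-7a-5p, let-7e-5p and let-7i-5p stay left of 0, and the other 5 arms lie right of 0 once the trend is removed.

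Removing the trend shifts arms of equal GC content by the same amount, so contrasts among such members do not depend on it. Let-7c-5p, let-7d-5p, let-7e-5p and let-7i-5p all hold 40.9% G and C, yet their differences as deposited ran from -2.75 for let-7c-5p to -0.60 for let-7d-5p. Let-7a-5p and let-7g-5p, both at 36.4%, differed by -2.70 and -1.09.

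The family as a whole took a much larger share of subcutaneous libraries. After values were put on the linear scale and the floor subtracted, the 9 arms made up 7.67%, 7.41% and 6.41% of the summed abundance in BF-EPA 3, 4 and 5. In SUB-EPA 1, 3 and 8 they made up 32.0%, 31.4% and 31.7%. The depots did not overlap, and the log2 difference of the sums was -2.15, or 4.44-fold, against a pooled SD of 0.10. Leaving out each library in turn gave 4.21-fold to 4.6-fold. Because let-7c-5p holds the top rank and let-7a-5p the next in all subcutaneous libraries, their part of this share is the value that the normalization gives those ranks. Without let-7c-5p the family's share was 3.92% to 4.92% in brown and 14.0% to 14.6% in subcutaneous fat (log2 difference -1.65), and with the GC trend removed the difference of the sums was -0.62.

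The make-up of the family also changed. Let-7c-5p made up 36.1% ± 2.6 (SD, n = 3) of the family sum in brown fat and 54.8% ± 0.51 in subcutaneous fat, and let-7a-5p made up 20.0% ± 0.49 and 29.3% ± 0.27. Let-7b-5p went the other way, with 24.6% ± 0.83 in brown and 5.72% ± 0.34 in subcutaneous fat, while its share of the library was 1.52% to 1.88% throughout. Let-7d-5p made up 7.79% ± 0.67 and 2.65% ± 0.02, let-7f-5p 5.19% ± 1.05 and 2.65% ± 0.35, and let-7g-5p 3.40% ± 0.45 and 1.64% ± 0.28. Let-7e-5p and let-7i-5p were each between 1.08% and 2.41% of the family in all 6 libraries, and miR-98-5p was at most 0.155%.

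**Figure D3:**
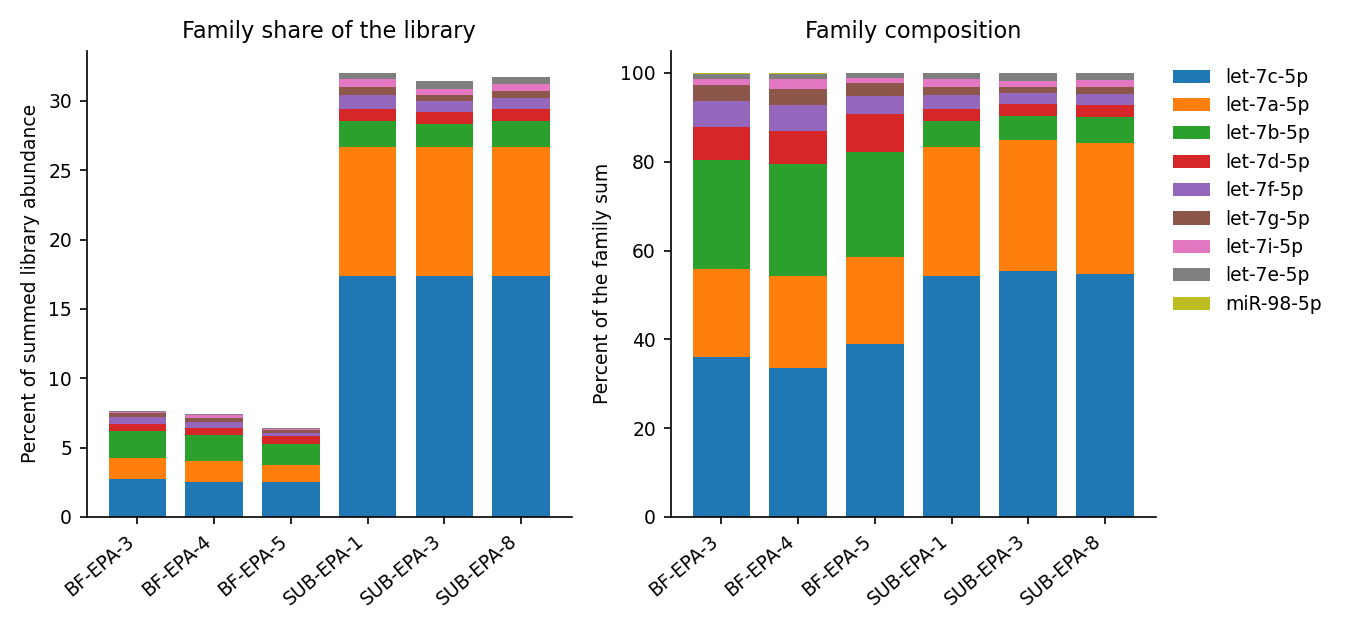
Stacked bars of the 9 guide arms in each library (x axis), as percent of the summed library abundance (left) and as percent of the family sum (right), on the linear scale with the floor subtracted. On the left, the family takes 6.41% to 7.67% of brown and 31.4% to 32.0% of subcutaneous libraries, and let-7b-5p takes 1.52% to 1.88% of every library. On the right, the let-7b-5p segment is the one that shrinks most, from 24.6% to 5.72% of the family.

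To compare the make-up, every arm was expressed relative to the family sum of its library and the whole table was fitted again (each member is part of its own reference). The step subtracts the depot difference of the log2 family sum (-2.15) from the difference of every arm. Higher in brown fat here thus means a difference above that of the sum, not a higher deposited value. Relative to the family, 4 members were higher in brown fat: let-7b-5p (2.11 ± 0.12 SE, limma adjusted p = 9.79e-06), let-7d-5p (1.55 ± 0.13, 6.48e-05), let-7g-5p (1.06 ± 0.19, 0.00247) and let-7f-5p (0.96 ± 0.21, 0.00474). Another 3 were lower: let-7c-5p (-0.60 ± 0.11, adjusted p = 0.00201), let-7a-5p (-0.55 ± 0.10, 0.00259) and let-7e-5p (-0.48 ± 0.17, 0.0395). On this scale 62.1% of all tested arms were higher and 8.92% lower, with a median of 1.70, since the family sum itself differs between depots. Let-7d-5p, let-7g-5p and let-7f-5p lay below that median.

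Let-7i-5p (0.04, limma adjusted p = 0.889, 95% interval -0.63 to 0.72) and miR-98-5p (0.83, adjusted p = 0.0993, -0.10 to 1.75) did not pass in this test. The calls of let-7b-5p, let-7d-5p and let-7c-5p held under all alternatives tried, including removal of the GC trend (1.38, 1.42 and -0.74). With the GC trend removed, let-7a-5p stood at -0.09 (limma adjusted p = 0.605). The let-7e-5p call was lost without BF-EPA 3 (adjusted p = 0.0777), BF-EPA 4 (0.0529), BF-EPA 5 (0.0634), SUB-EPA 3 (0.109) or SUB-EPA 8 (0.128).

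**Figure D4:**
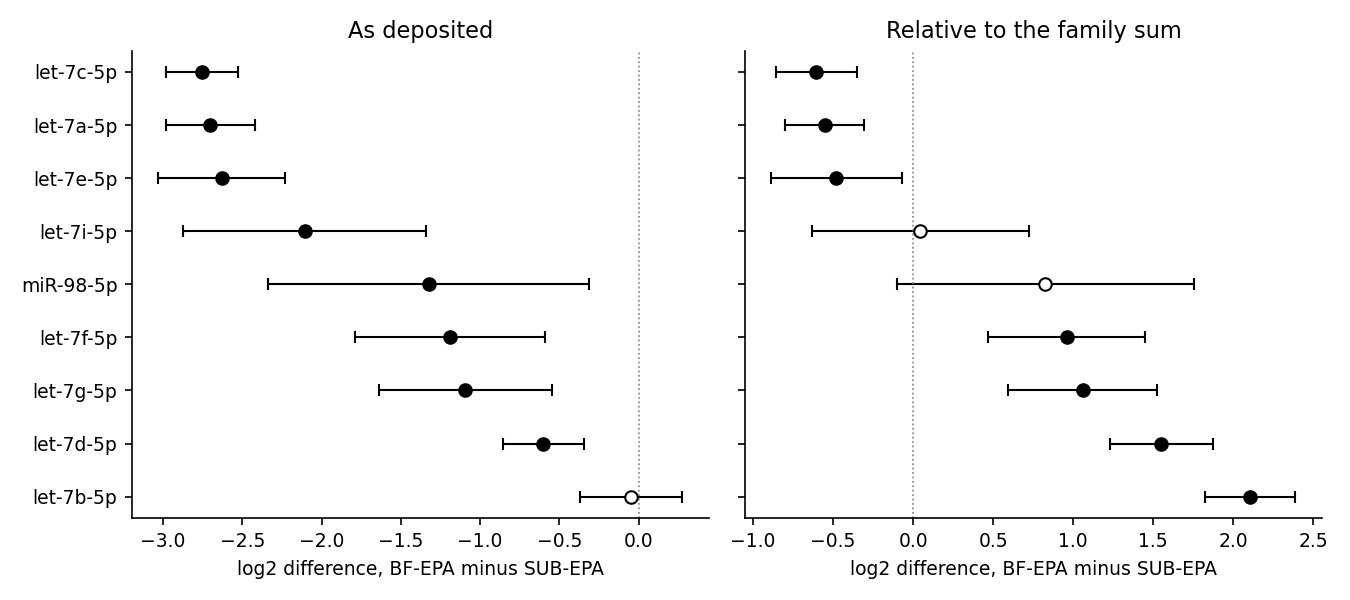
Difference between depots (x axis, log2, BF-EPA minus SUB-EPA) for each guide arm (y axis) with 95% intervals, for values as deposited (left) and relative to the family sum of each library (right), filled where the limma adjusted p is under 0.05. On the left 8 arms lie below 0. On the right let-7b-5p at 2.11 and let-7d-5p at 1.55 are farthest above it.

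Arms encoded near the let-7 hairpins moved with the family at some loci and against it at others. The neighbours were the miR-99 and miR-100 guide arms, and the guide arms miR-125a-5p and miR-125b-5p, which are mouse relatives of lin-4. Together with let-7 they form an old cluster, present in several copies. Of these 5 arms, 3 were higher and 2 lower in brown fat, against 33.5% higher and 35.7% lower over all tested arms.

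Opposite directions were seen in the values as deposited at the chromosome 17 cluster, where the let-7e guide arm is known to be encoded with miR-99b-5p and miR-125a-5p. Their sequences, shown because they are the partners of let-7e with the opposite depot bias as deposited, have seeds of their own, again in capitals.
miR-99b-5p: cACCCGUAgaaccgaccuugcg
miR-125a-5p: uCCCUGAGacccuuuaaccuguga

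MiR-99b-5p stood at 16.72, 16.72 and 16.51 in brown fat and at 15.70, 15.16 and 15.56 in subcutaneous fat, 2.26-fold higher in brown fat (limma adjusted p = 0.00118). MiR-125a-5p stood at 17.20, 16.90 and 17.20 in brown fat and at 16.18, 16.38 and 16.02 in subcutaneous fat, 1.88-fold higher in brown fat (adjusted p = 0.00183). Let-7e-5p had a log2 ratio to miR-99b-5p of -5.75 in brown fat and of -1.95 in subcutaneous fat, with no overlap between depots. MiR-99b-5p holds 63.6% G and C, and with the GC trend removed its difference was -0.39 (limma adjusted p = 0.201), whereas that of miR-125a-5p was 1.12 (0.00147).

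On chromosome 16, miR-99a-5p moved in the direction of let-7c-5p. It stood at 9.22, 9.76 and 9.85 in brown fat and at 11.81, 11.12 and 11.51 in subcutaneous fat (-1.87 ± 0.26 SE, limma adjusted p = 0.00118). On chromosome 9, miR-100-5p likewise moved with let-7a-5p, from 11.02 ± 0.33 (SD, n = 3) in brown fat to 12.32 ± 0.27 in subcutaneous fat (-1.30 ± 0.23 SE, adjusted p = 0.00297). MiR-125b-5p, which is known to be encoded at both clusters, was instead slightly higher in brown fat (0.45 ± 0.14 SE, adjusted p = 0.026).

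Within libraries, the log2 ratio of the let-7 arm to its neighbour, as deposited, was lower in brown fat for all 6 pairs compared. The direction of 2 pairs depended on the GC trend. The let-7 arms of these pairs had the largest differences of the members (-2.75, -2.70 and -2.63). Over all tested arms the median was -0.45, so their ratio to most tested arms would also be lower in brown fat. The pairs share arms as well, and this direction is thus not particular to neighbours. The shift in the ratio was -3.81 for let-7e-5p to miR-99b-5p, -3.54 to miR-125a-5p, -3.21 for let-7c-5p to miR-125b-5p and -3.16 for let-7a-5p to miR-125b-5p. It was smaller for let-7a-5p to miR-100-5p (-1.40) and let-7c-5p to miR-99a-5p (-0.89). With the GC trend removed, these last pairs turned, to 0.38 for let-7a-5p to miR-100-5p and 0.30 for let-7c-5p to miR-99a-5p. The other 4 kept their direction with smaller shifts: -2.36 for let-7e-5p to miR-125a-5p, -2.02 for let-7c-5p to miR-125b-5p, -1.38 for let-7a-5p to miR-125b-5p and -0.84 for let-7e-5p to miR-99b-5p. As deposited, the depots did not overlap for any pair, but 3 libraries against 3 cannot give a two-sided exact permutation p below 0.1, and each of the 6 gave p = 0.1 before and after Benjamini-Hochberg adjustment.

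Unequal differences were also seen inside the family on chromosome 15: let-7c-2 and let-7b lie in a single host transcript, while let-7c-5p differed 6.75-fold and let-7b-5p 1.03-fold between depots. Let-7c-5p also comes from chromosome 16, so the part contributed by the shared transcript is unknown. As deposited, the differences of let-7a-5p, let-7f-5p and let-7d-5p on chromosome 13 were -2.70, -1.19 and -0.60. Those of let-7f-5p and miR-98-5p on chromosome X were -1.19 and -1.32. With the GC trend removed they were -0.72, 1.39 and 0.79 on chromosome 13, and 1.39 and 1.25 on chromosome X. On chromosome 15, let-7c-5p and let-7b-5p then stood at -1.36 and 0.76.

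**Figure D5:**
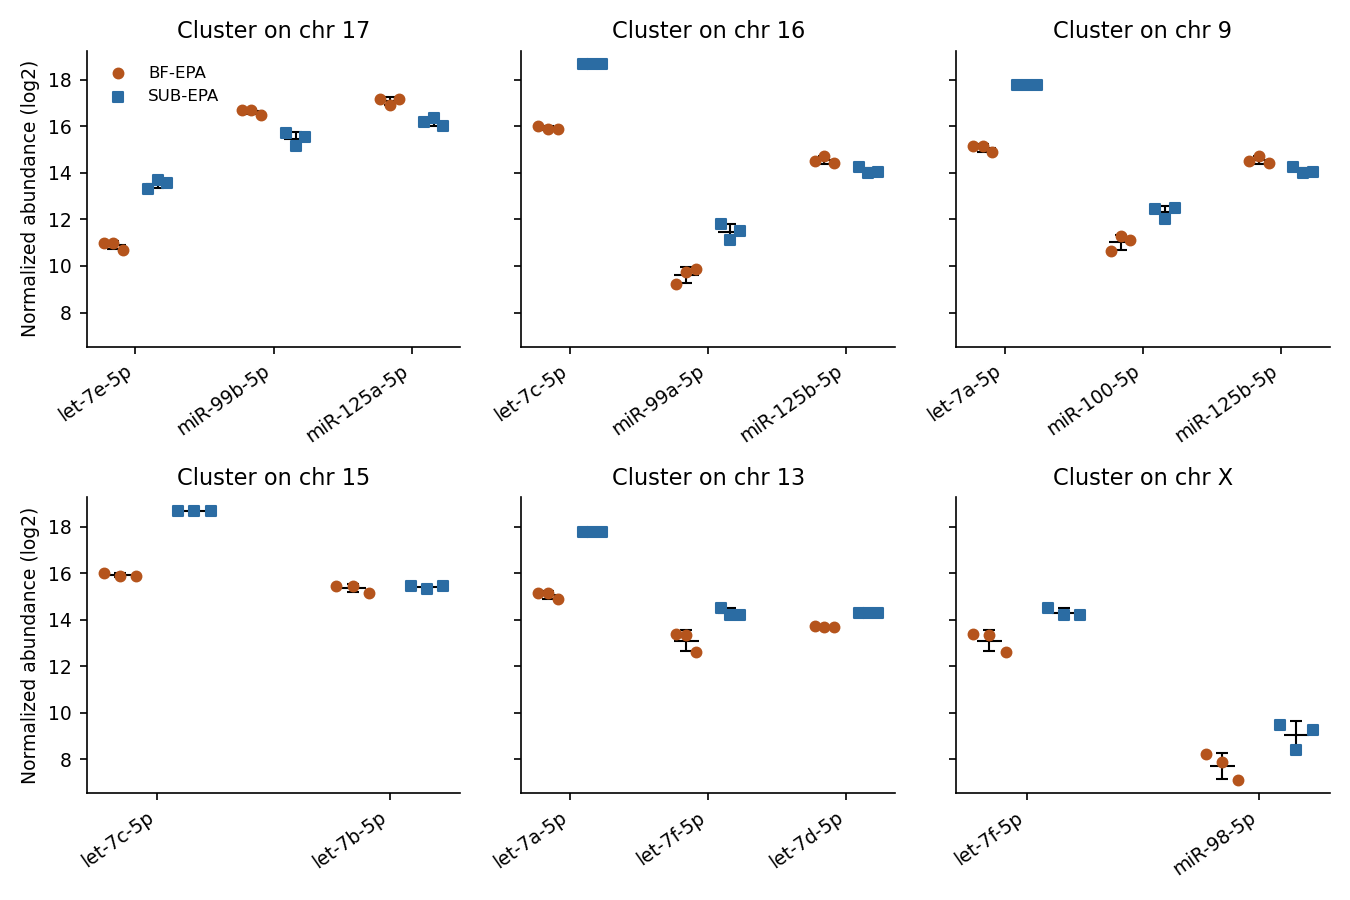
Normalized log2 abundance (y axis) of guide arms (x axis) grouped by genomic cluster, in BF-EPA (circles) and SUB-EPA (squares) libraries with depot mean and SD; arms made from several loci appear in each of their clusters. In the chromosome 17 panel let-7e-5p is lower in brown fat (10.89 against 13.52) and miR-99b-5p higher (16.65 against 15.47).

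The opposite strands of the same hairpins were mostly at the floor. Of 12 rows for let-7 and miR-98 3p arms, 8 were at the floor in all 6 libraries. Among the 4 that were tested, let-7d-3p alone exceeded its guide arm in any library. Its 3p arm, with its bases 2 to 8 in capitals, is the following.
let-7d-3p: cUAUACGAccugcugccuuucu

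Let-7d-3p stood at 14.31, 14.18 and 14.18 in brown fat and at 12.40, 13.18 and 12.81 in subcutaneous fat (1.43 ± 0.21 SE, limma adjusted p = 0.00142). It exceeded let-7d-5p by 0.49 to 0.57 in every brown library and was below it by 1.13 to 1.91 in every subcutaneous library. Let-7d-3p holds 50.0% G and C and let-7d-5p 40.9%, and the let-7d-5p difference turned to 0.79 with the GC trend removed. How far the contrasts between 3p and 5p arms depend on that trend was not tested. Let-7b-3p, at 9.71, 9.18 and 9.65 in brown and 7.40, 7.25 and 7.11 in subcutaneous fat, was 4.81-fold higher in brown fat (adjusted p = 0.00033), although its guide arm did not pass the test. The other tested 3p arms did not pass, with differences of 0.90 for let-7e-3p (limma adjusted p = 0.0839) and -0.63 for let-7i-3p (0.387).

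Among the other 260 tested arms, those whose profile over the 6 libraries was most like the log2 family sum were miR-196a-5p, miR-199a-3p and miR-199b-3p (Pearson's r of 0.997 each, over 6 libraries). MiR-196a-5p stood at the floor throughout brown fat. The miR-199 arms share identical values and cannot be told apart. Least like it were miR-6406, miR-1900 and miR-6538 (r of -0.999, -0.999 and -0.998), which stood at the floor throughout subcutaneous fat. The 6 points form a cluster per depot, so r here mainly describes depot separation. Of the 260 arms, 46 reached an r of at least 0.95 and 47 were as strongly negative.

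Markers of other cell types moved with the depots as well. Brown adipocyte miRNAs took 19.1% to 19.7% of brown and 1.69% to 2.08% of subcutaneous libraries, with 4 of 4 tested arms higher in brown fat and miR-455-5p at the floor throughout. Most of this share was miR-378a-3p, at 18.67 in every brown library, the highest value of the table. Stromal miRNAs took 1.06% to 1.28% of brown and 3.78% to 4.75% of subcutaneous libraries (5 of 6 tested arms lower in brown fat), and both endothelial arms were lower in brown fat (0.134% to 0.158% against 0.412% to 0.524%). Leukocyte miRNAs took 1.39% to 1.89% of brown and 0.626% to 0.840% of subcutaneous libraries, with 3 of 4 tested arms lower in brown fat and 1 higher, and miR-142-3p and miR-155-5p at the floor throughout. Most of this share was the higher arm, miR-150-5p (15.02 to 15.47 in brown fat), so the share runs against the other tested arms. Hox-linked miRNAs that mark body position took 1.19% to 1.63% and 5.96% to 9.06%, with 4 of 4 arms lower in brown fat and miR-196a-5p and miR-196b-5p at the floor there. Red cell miRNAs took 8.72% to 8.73% of brown and 0.811% to 1.51% of subcutaneous libraries, with miR-486-5p higher and miR-451a lower in brown fat and miR-144-3p at the floor throughout. This share was almost wholly miR-486-5p, which tied at 17.68 in every brown library. The part of these cell types in the let-7 differences was not tested. Skeletal muscle miRNAs reached 6.29% in BF-EPA 4 and 5.12% in SUB-EPA 3, against 0.0526% to 0.429% in the other 4 libraries, although miR-1a-3p was at the floor in all 6. Without those 2 libraries the same 8 members were lower, against 89 lower and 80 higher of all 269 tested arms, and the family difference was -2.18. Epithelial miRNAs reached 1.64% in SUB-EPA 1 and at most 0.0171% elsewhere, and without SUB-EPA 1 the family difference was -2.14.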

How the data were processed

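Total RNA from frozen fat went into Illumina small RNA libraries, per the labels' protocols. The design text of the series names the Gunaratne Next Generation pipeline, build mm10, scaling to usable reads and 40 added counts. For the aligner, the annotation and reads matching several miRNAs, nothing is given in the sources used here. The authors deposited log2 values for 1251 arms in 6 libraries. In these values the floor is 3.32 (10 on the linear scale), 910 arms are at the floor throughout, and 64.0% of the 100 highest ranks hold a single value in all libraries within 1e-06. Depth per library is therefore unknown, and no counting interval can be given.

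An arm was tested if its mean after subtracting the floor was at least 24.0 linear units (0.001% of the mean library total), which left 269. Limma 3.58.1 in R 4.3.3, with a mean-variance trend, compared the groups over all tested arms, with Benjamini-Hochberg adjustment at 0.05. Family sums and shares have no test. GC content came from RefSeq mature sequences (GRCm38.p6), matched by name for 229 tested arms (85.1%) and all 9 members. Python 3.11.15 with scipy 1.17.1 gave exact permutation tests. The fit was tested on 20 simulated sets of the 269 arms, with 60 arms changed in each. It recovered 38%, 72% and 82% of arms changed by 1, 2 and 3 log2 units, and 4.53% of its calls were false. Those sets held a much smaller part of changed arms than the 69.1% called in the data. Their values were drawn independently from normal distributions, without the shared ranks and exact ties of the deposited values. The part of false calls in the data is therefore not known from them. Members, lists and tests were chosen with earlier results of these data known. The arms named were the 9 members, their cluster neighbours, 3p arms, arms with the same seed, and the 3 arms most and the 3 least like the family sum. Alternatives covered added constants, filters, scalings, variance models, removal of GC trends, and left-out libraries. Chosen after seeing the data were the fit without BF-EPA 4 and SUB-EPA 3, which are rich in miR-133a-3p, the family share with identical rows collapsed, and GC removal for the family sum, for members relative to it and for the pairs of neighbours.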

Additional observations from a re-analysis of the deposited data

How the results depend on the processing

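Leaving out each library in turn left 7 or 8 members lower in brown fat and 0 higher. Over all 269 tested arms, the same fits called 90 to 97 lower and 75 to 91 higher. Of the alternatives tried, only removal of the GC trend reversed called members: let-7d-5p (0.79), let-7f-5p (1.39), let-7g-5p (0.89) and miR-98-5p (1.25). It left 3 members lower and 5 higher, against 83 lower and 65 higher of the 229 arms in that fit, and the cause was not tested. Let-7b-5p, not called as reported, became higher there (0.76), and its sign also turned, without a call, with median-of-ratios scaling (0.22) and without BF-EPA 5 (0.06). GC removal also turned the let-7c-5p to miR-99a-5p (0.30) and let-7a-5p to miR-100-5p (0.38) shifts and moved those of let-7c-5p (-2.02) and let-7a-5p (-1.38) to miR-125b-5p, and of let-7e-5p to miR-99b-5p (-0.84) and miR-125a-5p (-2.36). The log2 difference of the family sum, -2.15 as reported, was -1.65 without let-7c-5p, and the same without the most abundant member of each library, which was let-7c-5p. It was -1.88 with median-of-ratios scaling, -2.59 as a ratio to the total outside the family, -2.04 as a share with identical rows collapsed and -0.62 with the GC trend removed. Without let-7c-5p, the brown minus subcutaneous difference in family share was 25.8 percentage points for let-7b-5p and -33.6 for let-7a-5p. With the mean log2 of the members as reference, 2 members were higher in brown fat instead of 4, and 136 of all 269 tested arms instead of 167. Let-7f-5p (limma adjusted p = 0.109) and let-7g-5p (0.0531) lost their calls. Against the family sum, let-7f-5p also lost its call on omitting BF-EPA 3 and SUB-EPA 3 (0.0645) or BF-EPA 4 and SUB-EPA 3 (0.0638). The let-7e-5p call against the family sum was also lost with no variance trend (0.0857), with 40 added to the values (0.0556), and on omitting BF-EPA 3 and SUB-EPA 3 (0.182) or BF-EPA 4 and SUB-EPA 3 (0.143), and miR-98-5p passed with 40 added (0.0260) or the GC trend removed (0.00492). Over all arms, 90 were higher and 96 lower, 58 and 69 with the stricter filter, which tests fewer arms, and 74 and 122 when scaled to the total outside the family. Median-of-ratios scaling moved the median of all arms by 0.27. No paired analysis was possible, as the labels do not say whether a number marks the same mouse in both depots. The groups also share only the number 3.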
